A study of Homo sapiens with 6 samples.

Results

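Chromatin accessibility was examined around 7 genes tied to the recurrent translocations and cyclin D classes of multiple myeloma: MAF, CCND1, CCND2, CCND3, NSD2, FGFR3 and ITGB7. The libraries came from ARP1, a human myeloma cell line, and were made by ATAC-seq, an assay in which a transposase inserts sequencing adapters into accessible DNA. The groups were KDM6A knockout cells and wild-type cells, with 3 libraries each. KDM6A is a demethylase of histone H3 at lysine 27. Replicate numbers in the labels are called biological, but neither separate cultures nor knockout clones are named, so a p-value here measures the spread between these libraries. The deposited files were peak lists, 1 per library. Peaks of the 6 lists that shared at least 1 bp were merged into 75701 regions. A region belonged to a gene when it overlapped the gene record or lay within 100 kb of either end, which gave 86 regions for the 7 genes, out of 20037 protein-coding genes in the table used.

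Multiple myeloma is a cancer of plasma cells, the B-lineage cells that secrete antibody. In many tumours an immunoglobulin heavy chain enhancer is joined by translocation to MAF, CCND1, CCND3, or the neighbouring pair NSD2 and FGFR3. MAF is a basic leucine zipper transcription factor, and CCND2, which encodes a D-type cyclin, and ITGB7, which encodes an integrin chain used in adhesion and homing, are known targets of it in myeloma. The D-type cyclins activate CDK4 and CDK6 in the G1 phase, NSD2 places methyl groups on lysine 36 of histone H3, and FGFR3 is a receptor tyrosine kinase for fibroblast growth factors. The labels do not state which translocation the cells carry, and peak lists do not show one.

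The lists differed in length. After the mitochondrial peak, 1 per list, was left out, the knockout lists held 33055, 37314 and 36055 peaks and the wild-type lists 54443, 54470 and 56048, so that knockout lists were 64.5% as long on average. The lowest fold over background in a list was 3.23 ± 0.12 (SD, n = 3) for the knockout and 2.81 ± 0.10 for the wild type, so a weak peak passed more easily in the wild type. The fold and the −log10 p-value of each peak are the authors' own, and the number of reads behind a peak is unknown. Ranks in lists of unequal length are not comparable between genotypes. Genotypes were therefore compared by the percentile of the −log10 p-value among the 23589 regions called in all 6 lists. This is called the shared-region percentile below. Over all protein-coding genes, 55.3% had a start called in all 6 lists. Plasma cell markers had one in 7 of 8 cases, and the remaining gene, JCHAIN, in the 3 wild-type lists only. Of 4 myeloid markers none had a called start in any list, while 2 of 5 B cell and 2 of 5 T cell markers (CD3E and CD8A) had one in all 6 lists. The B cell marker PAX5 and the T cell marker CD4 had one in some lists. Of 3 erythroid markers, HBA1 had one in 3 knockout and 2 wild-type lists, and the rest had none. For TNFRSF17, CIITA, CD3E, CD4 and HBA1 no start was listed. A peak within 1 kb of either gene end counted for them, so it need not lie at the start. The start of KDM6A had a peak in every list (fold 13.0 ± 1.86 in knockout libraries, 11.0 ± 2.44 in wild-type libraries). An open start does not check a coding deletion.

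The promoter sequences of 4 genes whose start regions are compared below show how unlike these starts are. They are the 250 bases before the RefSeq start (GRCh38.p14), 5′ to 3′ along the gene, with capitals marking matches on either strand to 7 motifs: TATAAA (the TATA box), CCAAT (the CCAAT box), GGGCGG (the GC box), CACGTG (the E-box), TGACTCA (the AP-1 element), TGCTGA (a part of MAF recognition elements) and TGACGTCA (the cyclic AMP response element). MAF lies at chr16:79600738-79600987 (minus strand), NSD2 at chr4:1871143-1871392 (plus), FGFR3 at chr4:1793043-1793292 (plus) and ITGB7 at chr12:53207252-53207501 (minus).
MAF: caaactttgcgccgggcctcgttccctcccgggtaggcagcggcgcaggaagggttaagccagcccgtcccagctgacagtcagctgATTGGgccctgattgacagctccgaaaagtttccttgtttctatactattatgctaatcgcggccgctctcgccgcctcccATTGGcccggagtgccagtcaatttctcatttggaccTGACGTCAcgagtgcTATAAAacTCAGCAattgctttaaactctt
NSD2: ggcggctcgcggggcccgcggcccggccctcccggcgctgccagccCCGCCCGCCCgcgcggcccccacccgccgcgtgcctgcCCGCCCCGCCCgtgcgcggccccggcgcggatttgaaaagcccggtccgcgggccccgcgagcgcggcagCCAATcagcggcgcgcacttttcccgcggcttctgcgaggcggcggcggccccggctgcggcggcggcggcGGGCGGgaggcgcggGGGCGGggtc
FGFR3: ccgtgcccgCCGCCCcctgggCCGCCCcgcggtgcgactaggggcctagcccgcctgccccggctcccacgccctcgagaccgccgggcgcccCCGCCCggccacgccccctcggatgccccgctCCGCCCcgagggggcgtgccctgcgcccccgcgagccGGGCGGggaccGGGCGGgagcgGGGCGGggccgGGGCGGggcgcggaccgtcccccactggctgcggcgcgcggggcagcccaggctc
ITGB7: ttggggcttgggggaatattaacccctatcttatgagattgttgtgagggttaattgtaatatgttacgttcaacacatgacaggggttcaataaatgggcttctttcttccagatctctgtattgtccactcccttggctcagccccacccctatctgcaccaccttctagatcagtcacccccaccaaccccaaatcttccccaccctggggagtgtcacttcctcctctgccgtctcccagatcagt

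The NSD2 and FGFR3 windows were made up of G and C to 86% and 86.8%, with 50 and 40 CpG dinucleotides, against a median of 58% and 11 over 34943 promoter windows of the same length. They held 6 and 8 GGGCGG matches, a motif present in 42.5% of all windows; some of the NSD2 matches overlap each other, and NSD2 also had 1 CCAAT. MAF, at 54.4% GC and 16 CpG, was the 1 window of the 4 with a TATAAA, 30 to 25 bases before the start, a motif held by 10.8% of windows. It also carried a TGACGTCA at 45 to 38 bases before the start (1.63% of windows), a TGCTGA on the opposite strand (14.0%) and CCAAT matches on the opposite strand (32.0% of windows hold one). ITGB7, at 49.6% GC and 2 CpG, had no match to any of the 7 motifs. CACGTG and TGACTCA, held by 6.32% and 4.22% of all windows, were not found in these 4. These are matches of letters and not binding sites. The MAF and NSD2 windows lay wholly inside a peak in 6 of 6 lists and the FGFR3 window in 5, while the ITGB7 window did so in 1 list. A peak overlapped the ITGB7 window at all in 1 knockout list and 3 wild-type lists.

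All 7 genes carried an open start: a peak lay within 1 kb of a start in every list, against 55.3% of protein-coding genes. Within 500 bp this held for 6 of the 7. The start regions fell into a strong group and a weak group. Each fold is the highest in the merged region and need not be that of the start itself. In wild-type lists the summits for CCND2, the upper-coordinate CCND3 start and ITGB7 lay more than 1 kb from the start. In wild-type cells the CCND2 start had a mean fold of 20.7 ± 2.59, the upper-coordinate CCND3 start 20.1 ± 3.10, NSD2 16.0 ± 2.14 and MAF 14.6 ± 2.27, and neighbours in this order overlapped in their single values. ITGB7 followed at 7.06 ± 1.01, CCND1 at 6.65 ± 0.38 and FGFR3 at 5.21 ± 0.57, each of its values below each of CCND1. Within the full wild-type lists this placed CCND2 at the mean percentile 92.4, CCND3 at 91.9, NSD2 at 86.7, MAF at 84.0, ITGB7 at 54.6, CCND1 at 52.0 and FGFR3 at 37.0. In the knockout lists the same percentiles were 92.1, 85.5, 84.5, 79.0, 39.3, 26.2 and 68.4 in that order of genes. These full-list percentiles place each start within its own lists and are not compared between genotypes.

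**Figure D1:**
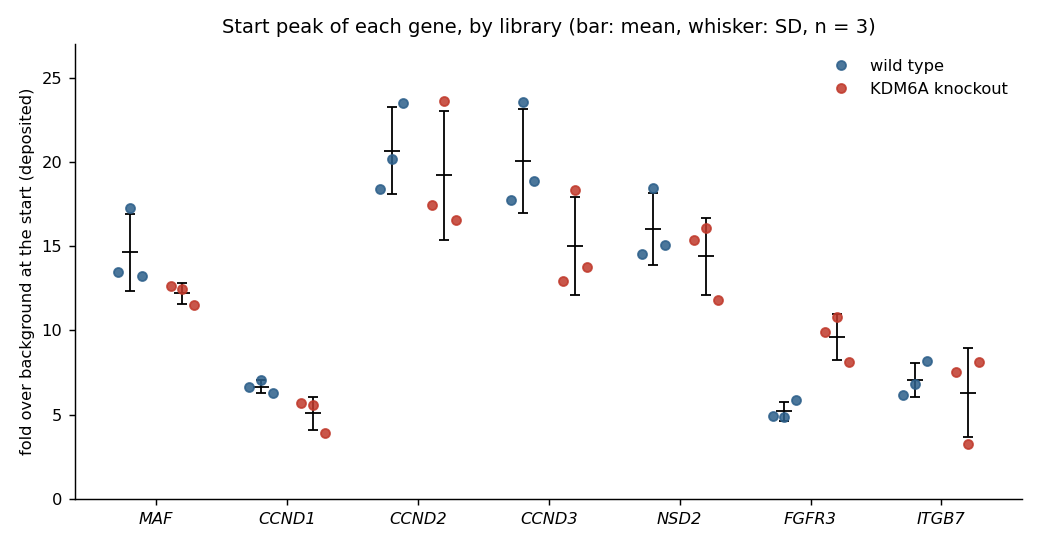
Deposited fold over background of the strongest peak in each gene's start region (vertical axis) for the 7 genes (horizontal axis). Each point is 1 library, with wild type in blue and knockout in red, and the bar and whisker give the mean and SD (n = 3). The 3 knockout values of FGFR3, 8.14 to 10.8, lie above its 3 wild-type values, 4.86 to 5.87.

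The FGFR3 start showed the largest difference between genotypes among the 7 starts. Its region, chr4:1792417-1794488, covers the first bases of the gene and had folds of 9.93, 10.8 and 8.14 in the knockout lists and 4.91, 4.86 and 5.87 in the wild-type lists. Every knockout value exceeded every wild-type value, and the ratio of means was 1.85. In bulk libraries, more open cells and a more open start in each cell cannot be told apart. Among all regions called in 6 lists, 2.81% had a higher fold in all 3 knockout lists, the median ratio was 0.788, and the ratio at FGFR3 stood at percentile 99.9. The shared-region percentile was 57.3, 56.4 and 46.2 in the knockout and 5.02, 2.97 and 9.79 in the wild type. The means differed by 47.4. The two-sided exact permutation test over the 20 labellings gave p = 0.1, the smallest it can give with 3 libraries against 3, and 0.467 after Benjamini-Hochberg adjustment over the 7 starts, so no start could pass 0.05. FGFR3 was the 1 start of the 7 whose groups did not overlap in this percentile, while 17.8% of all regions called in 6 lists were higher in all 3 knockout lists. The called peak was also longer, covering 1686, 1844 and 1818 bp in the knockout against 413, 1303 and 1313 bp. Its summit lay 112 to 210 bp inside the gene in the knockout lists. In the wild type it lay 296 and 340 bp before the start in replicates 1 and 2, and 108 bp inside the gene in replicate 3. When each list was reduced to its strongest 33055 peaks, the length of the shortest list, the FGFR3 start was still called in all 3 knockout lists and in 1 of 3 wild-type lists.

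GC content moved with the change of start regions over the genome. Over 8147 start regions with a promoter window, the median ratio of knockout to wild-type fold was 0.727 where the window had under 50% GC (312 regions), 0.821 at 60 to 70% and 0.932 at 80% or more (604 regions). The share of regions with a higher shared-region percentile in all 3 knockout lists was 10.6%, 23.4% and 36.6% in the same bins. The FGFR3 and NSD2 windows fall in the richest bin. FGFR3's ratio of 1.85 was matched or passed by 2 of the 604 regions there, itself included. The part of GC content in the FGFR3 difference was not tested.

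The other 6 starts differed less. MAF (gene at chr16:79202622-79600737, minus strand) had a start region at chr16:79599507-79602669 with folds of 12.6, 12.5 and 11.5 in the knockout and 13.5, 17.3 and 13.2 in the wild type, and CCND1 at chr11:69640722-69641703 had 5.72, 5.57 and 3.93 against 6.62, 7.05 and 6.29. In both genes every knockout fold was below every wild-type fold, which held for 43.9% of all regions called in 6 lists. Ranked among the same regions in each list, the groups overlapped in both genes: the shared-region percentile was 68.7 ± 3.64 against 63.3 ± 4.47 for MAF (exact permutation p = 0.2) and 9.96 ± 7.49 against 13.6 ± 1.95 for CCND1 (exact permutation p = 0.5). NSD2 had folds of 15.3, 16.1 and 11.8 in the knockout and 14.5, 18.5 and 15.1 in the wild type, which overlapped, and its percentile was 76.8 ± 6.23 against 69.4 ± 2.15 (exact permutation p = 0.2). The MAF summit lay 111 to 118 bp before the start in the knockout lists and between 250 bp before and 43 bp after it in the wild type.

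CCND2 had the widest of the 7 start regions, chr12:4268963-4275456, 6494 bp long. Its folds were 17.5, 23.6 and 16.6 in the knockout and 18.4, 20.2 and 23.5 in the wild type, which overlapped (ratio 0.929). The percentile was 88.3 ± 3.47 against 82.4 ± 6.67 (exact permutation p = 0.3). In every list the summit lay 1657 to 1673 bp below the lower-coordinate end of the gene, outside the gene record. CCND3 has 3 starts listed, all on the minus strand. The upper one, in chr6:42048097-42051577, is shared with an end of TAF8, and its summit lay 1908 to 2048 bp upstream of the CCND3 start, so the peak cannot be assigned to CCND3 alone. Its folds were 12.9, 18.4 and 13.7 in the knockout and 17.7, 23.6 and 18.9 in the wild type. The middle start, at chr6:41940187-41942576, had folds of 9.03, 14.8 and 8.98 against 10.9, 14.1 and 13.0, with summits within 189 bp of the start. The lower start had a peak in none of the knockout lists and in up to 2 wild-type lists. For ITGB7 the start region at chr12:53205290-53207577 had folds of 7.52, 3.28 and 8.14 against 6.19, 6.81 and 8.17. Knockout replicate 2 sat at the edge of its list, at full-list percentile 0.525, and the ITGB7 summits lay 438 to 1400 bp inside the gene, away from the GC-poor window printed above.

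In distal regions the FGFR3, CCND3, ITGB7 and MAF windows were denser than most, and NSD2 and CCND2 were sparse. Distal here means more than 1 kb from every protein-coding start, and the count is of regions that every wild-type list held, per 100 kb of window. FGFR3 had 2.78 (percentile 93.7 among the windows of all protein-coding genes), CCND3 1.90 (83.2), ITGB7 1.85 (81.8), MAF 1.84 (81.5) and CCND1 1.41 (70.7). CCND2 had 0.432 (27.8) and NSD2 0.322 (21.7), and the median gene had 0.882. With starts included ITGB7 led at 5.56 (95.6), since its window holds 8 other protein-coding genes with a start called in all 6 lists. These were IGFBP6, CSAD, ZNF740, RARG, SLC61A1, ESPL1, PFDN5 and MYG1. MAF stood apart in that no other protein-coding start lies in its window of 598 kb.

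**Figure D2:**
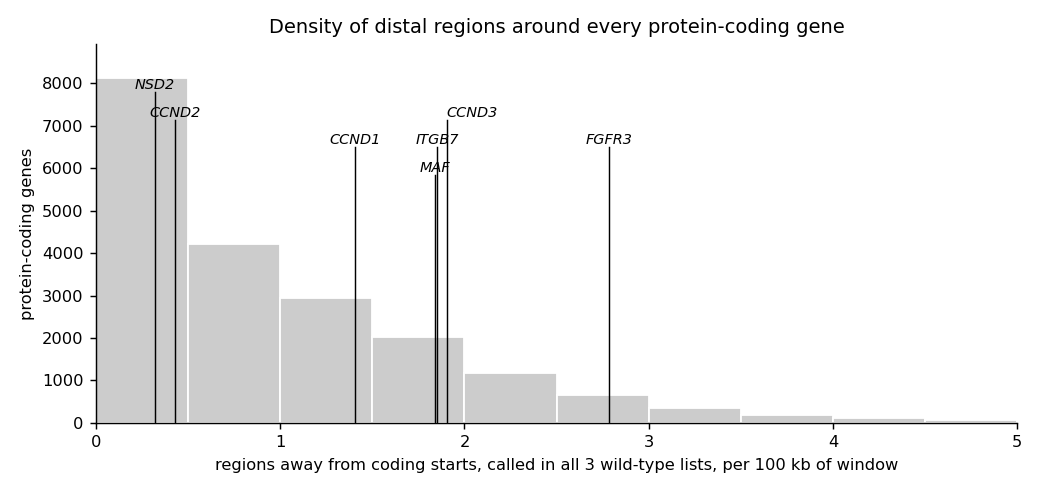
Number of protein-coding genes (vertical axis) by the density of distal regions in their windows (horizontal axis, regions per 100 kb, up to 5). Vertical lines mark the 7 genes, from NSD2 at 0.322 to FGFR3 at 2.78.

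Fewer peaks were called near the 7 genes in the knockout, at 82% of the wild-type mean. Whole lists stood at 64.5%. The median was 77.8% over 16600 gene windows with at least 3 wild-type calls on average. So a typical gene window also kept more of its calls than the whole lists did. The 3 knockout lists had 52, 56 and 56 peaks in the 86 regions and the wild-type lists 70, 69 and 61, or 54.7 ± 2.31 against 66.7 ± 4.93 (exact permutation p = 0.1, the smallest possible). As a share of the list these windows held 0.157%, 0.150% and 0.155% of knockout peaks against 0.129%, 0.127% and 0.109% of wild-type peaks, higher in every knockout list (exact permutation p = 0.1). At equal list length the direction of the call count reversed, with 4 more peaks on average in the knockout. MAF accounted for most of the difference: without it the lists held 45, 48 and 51 peaks against 54, 54 and 47, and the groups overlapped.

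**Figure D3:**
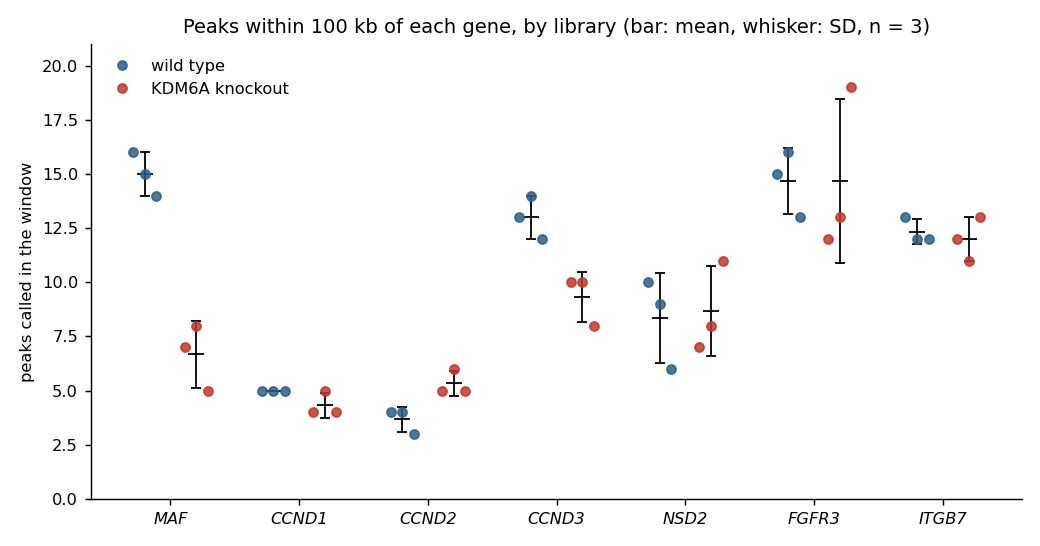
Peaks called within 100 kb of each gene or inside it (vertical axis) for the 7 genes. Points are libraries, with wild type in blue and knockout in red, and the bar and whisker give the mean and SD (n = 3). MAF has 5 to 8 peaks in the knockout and 14 to 16 in the wild type, and CCND2 has 5 or 6 against 3 or 4.

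Of the 55 member regions that every wild-type list held, 4 (7.27%) were called in no knockout list, where the share over the genome was 17.3%. Away from coding starts it was 4 of 31, against 23.1%. None of the 44 regions called in all 3 knockout lists was missing from all wild-type lists, where the background share was 0.39%. At equal list length 0 of 38 member regions were wild-type-only, where the share over the genome was 7.24%. Knockout-only regions numbered 3 of 43 (1 in CCND2, 1 at 24.6 kb before FGFR3 and 1 between FGFR3 and LETM1). Over the genome at that length the knockout-only share was 3.82%. Of the 41 regions called in all 6 lists, 3 had a lower shared-region percentile in every knockout list (17.3% of all regions) and 8 a higher one (17.8%).

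**Figure D4:**
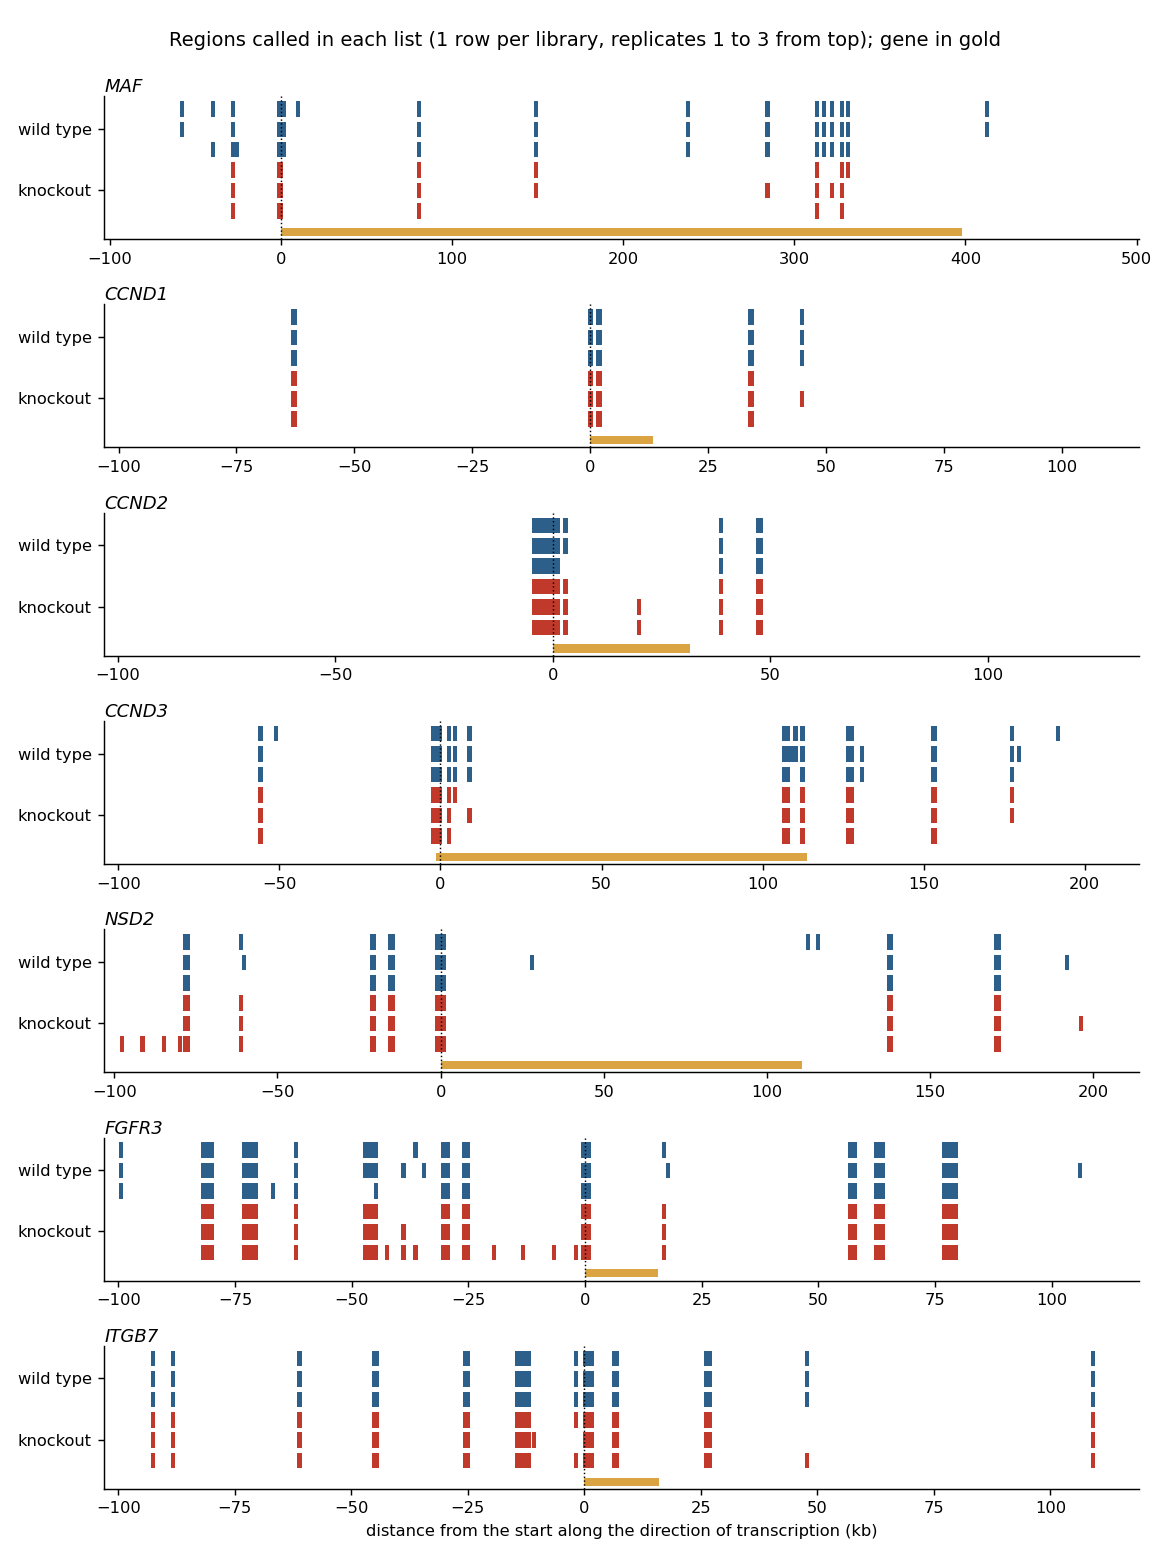
Merged regions with a peak in each list, drawn at their distance from the gene's start (horizontal axis, kb, positive into the gene; CCND1 and CCND2, with no strand in the table, from the lower-coordinate end, and CCND3 from its upper start). Each row is 1 library, 3 wild type in blue above 3 knockout in red, the gold bar is the gene record, and every region is drawn at its merged width, narrow ones widened to be visible. The MAF wild-type rows hold a group of regions 284 to 331 kb from the start that is thinner in the knockout rows.

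The widest gap in calls of the 7 genes was at MAF. Its window had 7, 8 and 5 peaks in the knockout and 16, 15 and 14 in the wild type, so the groups did not overlap and the knockout mean was 44.4% of the wild type. Over 16600 gene windows with at least 3 wild-type calls on average the median was 77.8% and the 10th percentile 44.4%. Over the 19494 gene windows with any call, 36.3% were lower in every knockout list. The flanks beyond the MAF window, out to 1 Mb, stood at 55.7%. At equal list length the mean difference went from −8.33 to −3.33 peaks (exact permutation p = 0.2). Of its 17 regions, 5 were called in all 6 lists, 3 in the wild type only and 4 in all wild-type and some knockout lists.

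The MAF regions called in the wild type only were weak or middling peaks. The first, at chr16:79282742-79284169, lay 317 kb into the gene record and had wild-type folds of 6.83, 5.10 and 5.66. The second, at chr16:79362482-79363075, had 4.06, 5.35 and 4.19. The third, at chr16:79598551-79599027, 1.7 kb inside the start, had 4.06, 3.89 and 3.77. The first belongs to a group of 6 regions within 47.7 kb, chr16:79269220-79316913, in the part of the record farthest from the start, which was singled out after its values were seen. All 6 were called in every wild-type list, and 3, 4 and 2 of them in the knockout lists. In 1 of the 2 regions of the group called in all 6 lists, chr16:79272027-79273256, the fold was 6.02, 4.92 and 5.61 in the knockout and 8.97, 9.48 and 10.5 in the wild type, and the shared-region percentile was 14.7 ± 7.82 against 34.9 ± 6.90. The other, chr16:79286351-79288666, had folds of 6.62, 5.57 and 5.61 against 7.26, 7.78 and 7.33. Its percentile was nearly the same in the genotypes, at 18.8 ± 8.08 against 19.0 ± 1.76. The distal region of MAF with the highest wild-type percentile, 27.3 kb upstream at chr16:79628065-79629123, had 11.4, 7.54 and 11.2 against 16.7, 18.0 and 15.1, with no overlap, and a percentile of 54.7 ± 21.1 against 71.5 ± 4.06. Strongest distal regions, here and for the other genes, were chosen by the wild-type lists, and a choice in 1 group favours a lower value in the other. In the knockout another distal region of MAF, chr16:79519166-79520357, was stronger on average (fold 11.2 ± 3.33 against 16.1 ± 1.17 in the wild type). So 2 of the 5 MAF regions called in all 6 lists were lower in percentile in every knockout list, and none was higher, where the shares over the genome were 17.3% and 17.8%. The start itself overlapped. The median ratio over these 5 was 0.699, the lowest of the 7 genes.

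CCND2 (chr12:4273762-4305353) showed the opposite count. Its window had 5, 6 and 5 peaks in the knockout and 4, 4 and 3 in the wild type, with no overlap, which held for 0.657% of gene windows. This rests in part on peak splitting, since the start region held 2 peaks in knockout replicates 1 and 2 and 1 peak in every other list. Counted as regions the numbers were 4, 5 and 5 against 4, 4 and 3, which overlap. A region 2.4 kb into the gene, chr12:4276143-4277322, had folds of 5.72, 4.59 and 5.33 in the knockout and 4.70 and 4.62 in the 2 wild-type lists that called it, with none in replicate 3. Another, at chr12:4293272-4293914, was called in knockout replicates 2 and 3 only. The strongest distal region, chr12:4311903-4312937, lay 38.7 kb from the lower end and had a fold of 9.80 ± 1.36 against 12.0 ± 1.49. TIGAR, a regulator of glycolysis, had an open start with a fold of 25.0 ± 1.32 against 26.4 ± 6.97, while FGF23 had no called start in any list.

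CCND1 (chr11:69641156-69654474) had few peaks, 4, 5 and 4 peaks in the knockout and 5, 5 and 5 in the wild type. Its 5 regions were the start, a region 1.2 kb into the gene at chr11:69642396-69643721, the start of LTO1, and 2 regions outside the gene and away from coding starts. The intragenic region had a fold of 7.55 ± 1.59 in the knockout and 7.67 ± 1.35 for the wild type. The stronger of these, chr11:69577732-69579016, 62.1 kb below the gene, had folds of 8.73, 9.83 and 4.21 in the knockout and 10.7, 12.4 and 9.43 in the wild type, and the groups overlapped. FGF19, which neighbours CCND1, had no called start.

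CCND3 (chr6:41934933-42050035) had 10, 10 and 8 peaks in the knockout lists and 13, 14 and 12 in the wild-type lists, with no overlap (71.8%). Such a separation held for 36.3% of gene windows with any call, and the median gene window stood at 77.8%. At equal list length the mean difference was −0.33 peaks, and its flanks stood at 78.2%. Its strongest distal region in the wild type, chr6:42103806-42105490, lies within C6orf132. It had folds of 9.63, 10.8 and 9.54 in the knockout and 13.7, 16.3 and 13.6 in the wild type, and a percentile of 56.2 ± 0.923 against 63.2 ± 1.84, lower in every knockout list. A region inside the gene near its 3′ end, chr6:41935608-41936939, was higher in percentile in every knockout list, at 65.6 ± 4.05 against 55.4 ± 3.43, although its mean fold was 11.6 ± 0.380 against 13.0 ± 1.81, and in the knockout it was the stronger of these. The starts of USP49, of TAF8 and of the divergent pair MED20 and BYSL in the same window were called in all 6 lists.

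NSD2 (chr4:1871393-1982192) and FGFR3 (chr4:1793293-1808867) lie side by side and share 11 regions of their windows. NSD2 had 7, 8 and 11 peaks in the knockout and 10, 9 and 6 in the wild type, and FGFR3 12, 13 and 19 against 15, 16 and 13. Neither separated the genotypes at full list length, and the highest count of each came from knockout replicate 3. Without that library the mean difference was −0.83 peaks for NSD2, from 0.33 with it, and −2.17 for FGFR3, from 0. At equal list length the knockout had more peaks on average, by 2.33 for NSD2 and 3.33 for FGFR3. The exact permutation p was 0.1 for each, the smallest possible. How many of all gene windows separate in this direction at that length was not computed. The NSD2 and FGFR3 counts are not independent, since their windows share regions. The NSD2 gene record, 110.8 kb long, held 1 weak region beyond its start, called in 1 wild-type list. The strongest region of its window away from starts, chr4:1849650-1851459 within LETM1, had a fold of 7.58 ± 0.592 against 7.87 ± 1.23 and a percentile of 36.2 ± 0.913 against 21.6 ± 4.77, higher in every knockout list.

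Between TACC3 and FGFR3, 45.9 kb at chr4:1745749-1791600 held 12 regions, a stretch picked after its values were seen. Knockout lists called 4, 5 and 11 of them and wild-type lists 5, 6 and 3. Of the 12, 5 were called in knockout replicate 3 and no other list, with folds of 3.37 to 3.93, near the lowest the list holds. The region 24.6 kb before FGFR3, chr4:1766824-1768722, had folds of 4.21, 6.23 and 6.17 in the knockout and 3.63, 4.37 and 4.40 in the wild type. These overlapped, at a ratio of 1.34, and the percentile was 15.0 ± 11.6 against 1.65 ± 1.14. Of the 3 regions in this stretch called in all 6 lists, it alone had a ratio above 1. The others, chr4:1748071-1748991 and chr4:1762388-1764294, had ratios of 0.939 and 0.662. By percentile chr4:1748071-1748991 was higher in every knockout list, at 26.4 ± 4.29 against 16.5 ± 6.96, while chr4:1762388-1764294 stood at 5.77 ± 3.64 against 16.3 ± 15.0, which overlapped. A region beyond the other end of FGFR3, chr4:1809687-1810510, was called in 3 knockout lists and 1 wild-type list. In the other direction, the 1 region of the FGFR3 window called in the wild type only, chr4:1693532-1694155 within SLBP, had folds of 4.91, 6.32 and 5.66. The strongest distal region of that window in the wild type, chr4:1730956-1731723 within TACC3, was also lower in fold in every knockout list. Its fold was 5.87 ± 0.708 against 7.97 ± 0.616. Its percentile, 17.5 ± 6.11 against 22.7 ± 3.74, overlapped. The starts of SLBP, TMEM129, TACC3 and LETM1 around FGFR3 were open in all 6 lists, with ratios of 0.982, 0.851, 0.851 and 0.802 (TMEM129 and TACC3 share a region), each below 1 where the FGFR3 start stood at 1.85. By shared-region percentile the SLBP start was also higher in every knockout list, at 94.0 ± 2.84 against 88.8 ± 1.35. In all, 4 of the 10 regions of the FGFR3 window called in all 6 lists were higher and none lower, where 17.8% and 17.3% were over the genome.

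ITGB7 (chr12:53191323-53207251) had overlapping counts in the genotypes, 12, 11 and 13 in the knockout lists and 13, 12 and 12 in the wild-type lists (97.3%). Of its 13 regions 10 were called in all 6 lists, 3 of them higher in percentile in every knockout list and none lower, where 17.8% and 17.3% of all such regions were. Most of the 10 lie at coding starts, and over all start regions with a promoter window the shares were 24.8% and 13.0%. A region 5.8 kb into the gene, chr12:53199897-53201422, had folds of 10.5, 8.85 and 7.02 in the knockout and 5.12, 8.26 and 7.75 in the wild type, and a percentile of 46.2 ± 13.6 against 16.2 ± 8.84. The strongest distal region, chr12:53218717-53222154, lies within RARG, a retinoic acid receptor gene. It had a fold of 12.6 ± 2.15 against 11.9 ± 1.68 and a percentile of 69.6 ± 8.88 against 49.4 ± 3.61. The third was the start of SLC61A1, at 57.0 ± 10.8 against 37.3 ± 5.33.

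**Figure D5:**
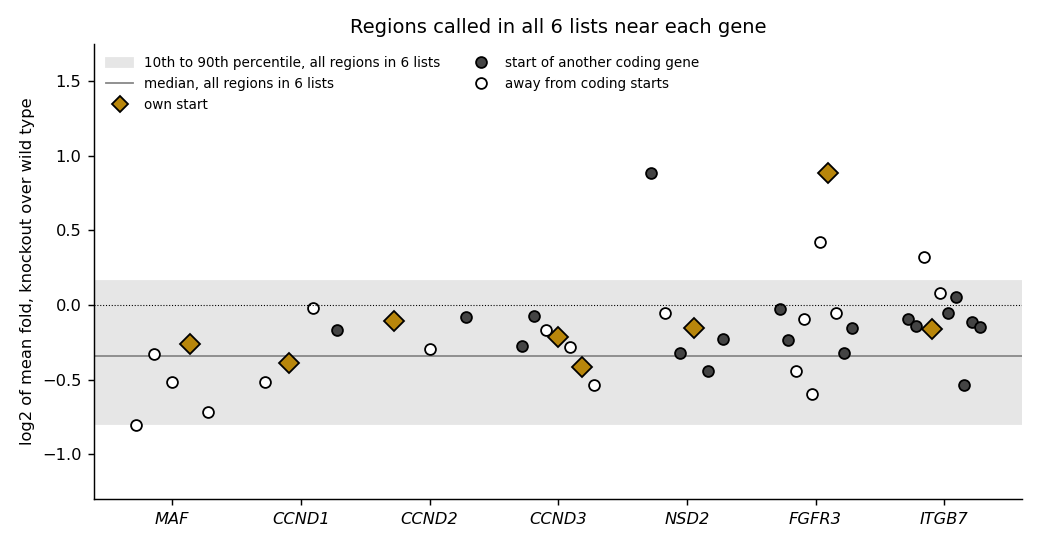
Log2 ratio of mean knockout to mean wild-type fold (vertical axis) for each region called in all 6 lists near the 7 genes. Gold diamonds are the gene's own starts, dark points other coding starts and open points distal regions, with the median (0.788 as a ratio) and the 10th to 90th percentile (0.576 to 1.12) of all 23589 such regions as line and band. The FGFR3 start, also drawn in the NSD2 column, stands highest at a ratio of 1.85, and the lowest point is a distal MAF region at 0.572.

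Over the 41 member regions called in all 6 lists, the median ratio was 0.890, against 0.788 for all such regions, and the median difference in shared-region percentile was 5.15 against −0.06. By gene the median ratio was 0.699 for MAF, 0.825 for CCND3, 0.826 for CCND1, 0.876 for NSD2, 0.919 for FGFR3, 0.929 for CCND2 and 0.931 for ITGB7. Over the genome the median ratio was 0.829 at coding starts and 0.757 elsewhere.

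Genes that work with the 7 were described by their own starts. Of 19 cyclin D partners and brakes 16 had a start called in all 6 lists, where 55.3% of all protein-coding genes had one, and 8 of these were higher in percentile in every knockout list and none lower. Among them were CDK4, the cyclin D kinase (fold 16.9 ± 1.52 against 16.5 ± 1.09), and the CDK inhibitor genes CDKN1A (15.8 ± 1.49 against 13.3 ± 0.861) and CDKN2D (24.9 ± 3.35 against 21.6 ± 3.84). Over all 8147 start regions with a promoter window 24.8% were higher and 13.0% lower. RB1, the target of the cyclin D kinases, and CDKN2C, an inhibitor of them, had no called start in any list. Of 6 large MAF factors and MAF-linked genes, 3 had an open start in all lists (NRL, NUAK1 and DEPTOR), 2 in some lists (MAFA and CCR1) and 1 in none (CX3CR1). Of 9 integrin beta 7 partners and ligands, 4 were open in all lists. They include ITGA4, whose product pairs with that of ITGB7, while ITGAE, the other partner chain, had no called start. All 6 genes for other methyltransferases of histone H3 lysine 36 or their relatives were open in every list, with 1 higher in percentile and none lower. Of 11 FGF receptors and partners 8 were open in all lists, 3 of them higher and none lower, and FGFR2 had no called start. No gene of these 5 lists had a start called in all 3 lists of 1 genotype and none of the other. FERMT3, which encodes an integrin activator of blood cells, came nearest, with a start called in 2 wild-type lists and no knockout list.

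The starts most like those of MAF, CCND2 and ITGB7 were sought among 11080 protein-coding genes by the mean absolute difference in shared-region percentile over the 6 lists. Nearest to MAF were TIA1 (1.20 percentile points), RWDD3 (1.91) and ALDH3A2 (2.24). Nearest to CCND2 were SEC63 (1.44), IRF2BP2 (2.09) and DNPEP (2.24). ITGB7, with its low value in knockout replicate 2, had no start as near: HES3 stood at 4.97, PALD1 at 5.86 and ORAI3 at 6.07.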

How the data were processed

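ATAC-seq libraries of ARP1 cells, 3 KDM6A knockout and 3 wild type by their titles, were sequenced as pairs of 150 bp reads, per the labels' protocols. Trimmomatic, FastQC, MultiQC, Bowtie2, MACS2 2.1.2 and the build GRCh38 are named in the submitters' processing notes; their settings, any Tn5 shift and duplicate removal were not given in the sources used here. Each deposited narrow-peak list, called per library, holds a score (10 times the −log10 q-value as a whole number), a fold ratio over background and −log10 p-values and q-values, all from the authors.

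Peaks were merged at 1 bp overlap in Python 3.11.15 (pandas 2.3.3, numpy 2.4.6, scipy 1.17.1). Gene records and promoters came from RefSeq tables of GRCh38.p14. A start was the listed promoter's (5 of the 7 genes; 15842 of 20037 coding genes) or otherwise both gene ends. Group differences used two-sided exact permutation tests. The text names the 7 genes, their regions over a start, in 1 genotype only or strongest away from starts, and open neighbouring starts; other regions were chosen after their values were seen, as was the division by GC content. The members and lists were chosen with earlier results of these data known. The code was tested on simulated data. Alternatives covered thresholds, list length, windows, merging, ranking and leaving out each library. 1 gene of the MAF-linked list is not reported here.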

Additional observations from a re-analysis of the deposited data

How the results depend on the processing

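Alternatives set a −log10 q-value of 5 or more, a fold of 4 or more, equal list length, windows of 50 kb, merging at 50% overlap, start windows of 500 bp and 2 kb, ranking by fold, and leaving out each library. The ranking at equal list length was chosen after seeing the data. At equal list length the difference in calls near the 7 genes was 4 (−12 otherwise), the wild-type-only regions numbered 0 and the knockout-only regions 3, and 0 starts separated the genotypes in percentile. The FGFR3 start, not called in every wild-type list there, then has no percentile. Without 1 library at a time the call difference ranged from −14.8 to −10.3, the share difference from 0.0266 to 0.0365 percentage points, wild-type-only regions from 5 to 8, knockout-only regions from 0 to 1 and starts that separate from 1 to 4. Regions lower in the knockout percentile ranged from 3 to 6 and higher ones from 9 to 16, since fewer libraries separate more easily. The FGFR3 start difference ranged from 45.8 to 52.7. Some small differences changed sign, namely the CCND1 and CCND3 starts and the NSD2 and ITGB7 calls. The CCND1 start was 0.774 at equal list length and −8.03 to 0.827 without 1 library, and CCND3 −5.11 to 0.0185. NSD2 calls were −0.333 at the stricter q-value, −1.33 at 50 kb and −0.833 (without knockout replicate 3 or wild-type replicate 3) to 1.17 without 1 library. ITGB7 calls were 2.0 at equal list length and 0.167 without knockout replicate 2. The cause of these changes was not tested. Members with a start called in every list numbered 5 at the stricter q-value, at a fold of 4 and at equal list length. They numbered 6 at a start window of 500 bp.

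Same-numbered libraries did not deviate together (correlations of −0.028, −0.004 and −0.175 over shared regions). Libraries with unlike numbers had correlations of −0.095 to 0.113. These values cannot show whether same-numbered libraries were handled as pairs. With a replicate block the call difference stayed −12 and the share difference 0.0329, each with an exact sign permutation p of 0.25, the smallest 3 pairs allow. Depth is unknown, so a region absent from a list was not called there, which does not show closed chromatin.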
